A study of Homo sapiens with 6 samples.

Results

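The 9 genes described here, HLA-B, HLA-C, HLA-E, B2M, TAP1, TAP2, PSMB8, PSMB9 and NLRC5, carry out the presentation of peptides on MHC class I molecules. They were taken by symbol from a list of class I genes, chosen with earlier results of these data known. They are 9 of the 56638 gene symbols counted in each library. All 9 had counts in every library and all 9 passed the filter on low counts. A class I molecule is a heavy chain (HLA-B, HLA-C or HLA-E) held together with the light chain B2M and a short peptide, and it displays pieces of a cell's own proteins to T cells and natural killer cells. The peptides are cut by the proteasome, whose immunoproteasome form holds PSMB8 and PSMB9 in place of constitutive subunits, and are carried into the endoplasmic reticulum by the transporter made of TAP1 and TAP2. NLRC5 is a transactivator of class I genes, and interferon is a well known inducer of the whole pathway. Loss of B2M, of a transporter subunit or of a heavy chain is a known route by which colorectal tumours escape T cells.

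The series holds 6 RNA-seq libraries of human colorectal cancer cells, 3 labelled control siRNA (a nonspecific siRNA) and 3 labelled GLCC1 siRNA, which is directed against the long noncoding RNA AF339830, named GLCC1 by the study. All 6 were transfected with an siRNA, and the genotype labels give the number siRNA1 in both groups. The sample titles number the siRNA within each group, and these numbers are called replicates here. Whether they also stand for different siRNA sequences is not given in the sources used here. The labels name SW480 cells grown in RPMI-1640 with fetal bovine serum, whereas the methods of the study name DLD-1 for this experiment, and which line it was, was not tested. Groups were taken from the sample titles. The names of the libraries themselves assign the siRNAs the other way round, under which every difference given here would change its sign.

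GLCC1 itself is not listed under that name among the counted genes, so the knockdown was not checked directly. FARP1, the gene at whose locus GLCC1 lies, was counted at 109, 110 and 113 CPM (counts scaled to a common library size) in the control libraries and at 63.2, 65.6 and 65.4 CPM after GLCC1 siRNA. This is a log2 fold change of -0.77 (SE 0.08, edgeR adjusted p = 9.2e-06), and whether this count includes reads of GLCC1 was not tested. The control libraries held 15002165 to 19042516 read pairs on genes, and the GLCC1 siRNA libraries 11948790 to 18390975. GLCC1 siRNA replicate 2 stood apart as the smallest library, with 12.7% of all read pairs on no annotated gene against 9.82% to 11.2% in the other 5. Results of the members and of some listed genes are therefore given with and without it. The ratios, the levels and the search for similar patterns are shown with all 6 libraries. All 9 colon epithelium markers examined had a mean of at least 1 CPM, and their summed level was 5682 to 6203 CPM in the control libraries and 2415 to 2793 CPM after GLCC1 siRNA. Leukocyte markers summed to 4.05 to 5.54 CPM in the controls and 4.22 to 7.19 CPM after GLCC1 siRNA, with PTPRC and CD2 at 0 counts in all 6. Fibroblast markers summed to 16.1 to 19.9 CPM in the controls and 10.7 to 13.3 CPM after GLCC1 siRNA, with COL1A2 and DCN at 0, and endothelial markers to 0.542 to 1.03 and 0.318 to 1.4 CPM, with PECAM1 and CDH5 at 0. The part of these shifts in the results below was not tested, and in RNA from whole cultures fewer cells of a state and less RNA per cell cannot be told apart.

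The promoters of 5 members are shown because class I genes are known for short elements upstream of the start that bind IRF and NF-kB factors. Each run covers 250 bases before to 50 bases after the start of the canonical transcript, read from the GRCh37 (hg19) genome with GENCODE 44, and is written 5′ to 3′ on the strand of the gene. Capitals mark 2 kinds of match, which are the IRF double element (the tetramer GAAA, 2 bases of any kind, and GAAA again, or TTTC, 2 bases and TTTC on the other strand) and an NF-kB motif. In TAP2 and PSMB8 the capitals are IRF double elements, in HLA-B they are NF-kB matches, and in B2M and TAP1 both kinds stand in that order from the left.
TAP2 (chr6:32806467-32806766, minus strand): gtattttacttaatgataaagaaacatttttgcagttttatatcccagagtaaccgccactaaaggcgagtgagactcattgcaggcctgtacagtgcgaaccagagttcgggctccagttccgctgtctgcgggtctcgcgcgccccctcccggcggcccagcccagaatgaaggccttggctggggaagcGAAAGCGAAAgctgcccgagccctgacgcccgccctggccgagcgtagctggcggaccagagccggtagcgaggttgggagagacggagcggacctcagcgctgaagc
PSMB8 (chr6:32811775-32812074, minus strand): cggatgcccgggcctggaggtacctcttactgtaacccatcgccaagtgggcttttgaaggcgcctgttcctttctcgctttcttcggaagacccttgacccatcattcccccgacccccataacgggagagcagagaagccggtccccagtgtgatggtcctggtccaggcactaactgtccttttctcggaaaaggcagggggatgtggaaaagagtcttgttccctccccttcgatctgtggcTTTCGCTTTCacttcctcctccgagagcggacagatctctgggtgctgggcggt
B2M (chr15:45003465-45003764, plus strand): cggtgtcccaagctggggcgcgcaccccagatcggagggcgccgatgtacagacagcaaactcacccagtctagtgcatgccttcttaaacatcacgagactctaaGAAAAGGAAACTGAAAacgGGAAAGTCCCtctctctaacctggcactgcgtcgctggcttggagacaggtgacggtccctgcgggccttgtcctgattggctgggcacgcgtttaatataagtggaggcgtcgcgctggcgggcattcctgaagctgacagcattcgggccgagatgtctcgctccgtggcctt
TAP1 (chr6:32821432-32821731, minus strand): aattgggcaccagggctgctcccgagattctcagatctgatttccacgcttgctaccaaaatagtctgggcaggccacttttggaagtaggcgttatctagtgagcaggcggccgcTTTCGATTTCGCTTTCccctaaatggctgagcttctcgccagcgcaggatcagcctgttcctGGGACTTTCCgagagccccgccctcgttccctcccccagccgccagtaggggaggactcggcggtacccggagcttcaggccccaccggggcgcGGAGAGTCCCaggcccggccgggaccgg
HLA-B (chr6:31324907-31325206, minus strand): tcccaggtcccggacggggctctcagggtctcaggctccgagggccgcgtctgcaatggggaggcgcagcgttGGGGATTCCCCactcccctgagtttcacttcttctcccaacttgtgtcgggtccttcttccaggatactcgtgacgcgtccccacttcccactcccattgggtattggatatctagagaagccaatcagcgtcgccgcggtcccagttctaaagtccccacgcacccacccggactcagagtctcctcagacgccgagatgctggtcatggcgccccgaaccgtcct

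The IRF double element was found in the promoters of 4 of the 8 members examined (B2M, TAP1, TAP2 and PSMB8) and in 3.29% of the promoters of 19874 protein-coding genes. Counted back from the transcript start, the match of PSMB8 begins at -4 and that of TAP2 at -58. B2M holds overlapping matches that begin at -144 and -138, and those of TAP1 begin at -134 and -128. The shorter IRF core AANNGAAA, which lies within every double element, was present in 6 of the 8 and in 18.8% of all promoters. HLA-E and PSMB9 were those without it in this window. The NF-kB motif was present in HLA-B, HLA-C, B2M and TAP1, which is 4 of 8, and in 6.55% of all promoters. The GAS element TTCNNNGAA was found in PSMB8 alone of the 8, at -65, and in 6.51% of all promoters. The X2 box TGACGC was found in HLA-B, HLA-C, HLA-E and TAP2, against 11.8% of all promoters, and the Y box CCAAT in 6 of the 8, against 36% of all promoters. Both strands were searched for each motif, and a match here describes letters only.

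The comparison asked which genes differ when GLCC1 is knocked down. Of the 9 members, B2M, TAP2, PSMB8, PSMB9 and NLRC5 were higher in the GLCC1 siRNA libraries, between 1.48-fold and 2.86-fold, and HLA-B, HLA-C, HLA-E and TAP1 did not pass the test. Over all 23074 genes tested, 14.9% were called higher and 16.7% lower at an adjusted p under 0.05, against 5 of 9 and 0 of 9 members by the same edgeR test. The members were chosen with earlier results of these data known, so the shares given here do not test the list. The shares of all genes also include genes with few counts, and only 14875 genes averaged at least 1 CPM. With at least 10 counts asked for in every library, 6853 genes and 5 members were called. The share among genes counted as well as the members was not computed. At an unadjusted p under 0.05 by edgeR, 5 members were higher and 0 lower, and the share of all genes at that limit was not counted. DESeq2 called 5 members higher and 0 lower, with 6723 genes called over all against 7293 by edgeR. In the same 5 members every GLCC1 siRNA library lay above every control library, against 22.3% of all genes tested, and no member had all GLCC1 siRNA libraries below the controls, against 24% of all genes. The median log2 fold change was 0.57 over the members and 0.03 over all genes tested. With library totals as the only scaling the latter moved to 0.15, and the 5 members were called higher with that scaling too.

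**Figure D1:**
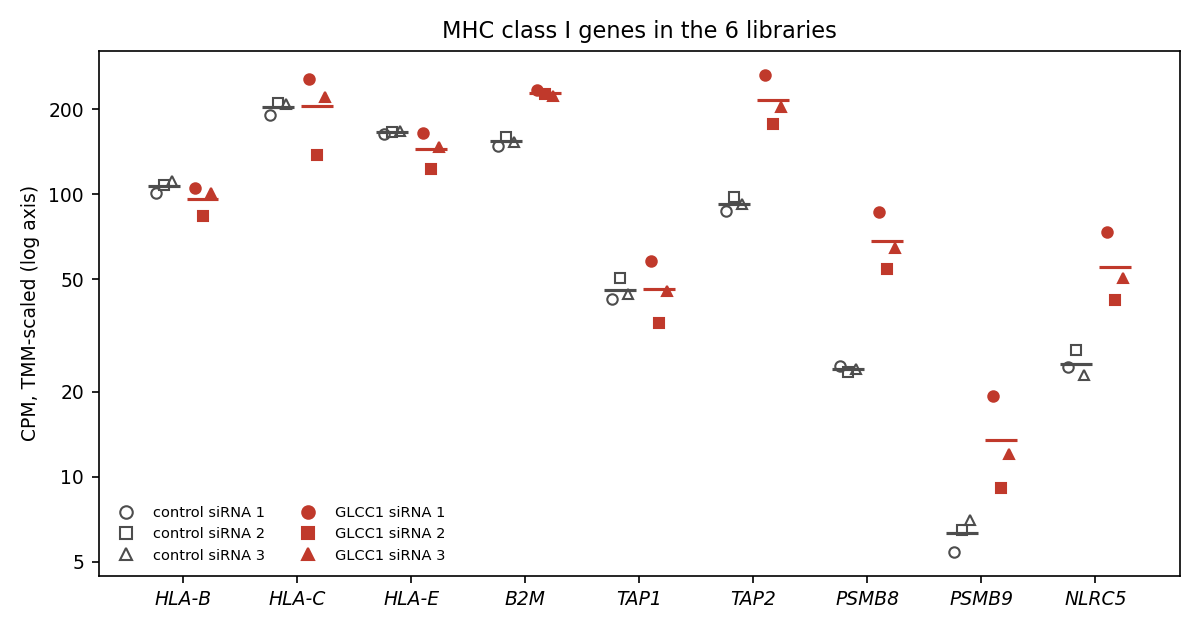
The level of each member in each library is plotted in CPM on a log axis, with open symbols for control siRNA, filled symbols for GLCC1 siRNA, a shape for each replicate number and a line at the mean of 3 libraries. TAP2, PSMB8, PSMB9 and NLRC5 have all 3 filled symbols above the open ones with GLCC1 siRNA replicate 2 (square) lowest, B2M has them close together at 222 to 234 CPM, and the groups overlap in HLA-B, HLA-C, HLA-E and TAP1.

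The 3 heavy chains did not pass the test. HLA-B (ENSG00000234745, chr6:31321649-31334844, minus strand), a classical heavy chain that presents peptides to cytotoxic T cells, was measured at 101, 108 and 111 CPM in the control libraries and at 105, 83.5 and 101 CPM in the GLCC1 siRNA libraries. Only replicate 2 lay below every control, and the log2 fold change was -0.14 (SE 0.10, 95% interval -0.35 to 0.07, edgeR adjusted p = 0.30), or -0.05 without that library (edgeR adjusted p = 0.53). In the annotation 45.3% of the exon bases of HLA-B lie in exons of other annotated genes as well, and the counting mode drops read pairs that fall on more than 1 gene. HLA-C (ENSG00000204525, chr6:31236526-31239907, minus strand), the classical heavy chain that also serves as a main ligand of killer cell receptors, was measured at 191, 210 and 208 CPM in the control libraries and at 256, 138 and 220 CPM in the GLCC1 siRNA libraries. Replicates 1 and 3 lay above all controls and replicate 2 below all of them, and the spread rose from an SD of 10.6 to 60.8 CPM (n = 3 each). The log2 fold change was 0.02 (SE 0.16, 95% interval -0.33 to 0.37, edgeR adjusted p = 0.95), and without GLCC1 siRNA replicate 2 it was 0.24 (edgeR adjusted p = 6.4e-04), so that 1 library decides whether HLA-C was called. HLA-E (ENSG00000204592, chr6:30457286-30461971, plus strand), the non-classical heavy chain that binds leader peptides of other class I chains, was measured at 163, 166 and 167 CPM in the control libraries and at 164, 123 and 147 CPM in the GLCC1 siRNA libraries. Replicates 2 and 3 lay below the controls and replicate 1 among them, with a log2 fold change of -0.19 (SE 0.10, 95% interval -0.41 to 0.02, edgeR adjusted p = 0.16), or -0.09 without replicate 2 (edgeR adjusted p = 0.20). The intervals of HLA-B and HLA-E reach from a fall to a small rise and exclude a rise of the size measured for B2M.

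B2M (ENSG00000166710, chr15:45003556-45011049, plus strand), the light chain shared by all class I molecules, rose in each library by nearly the same amount. It was measured at 148, 160 and 153 CPM in the control libraries and at 234, 226 and 222 CPM in the GLCC1 siRNA libraries. The groups did not overlap, and B2M was the only member in which replicate 2 was not the lowest of the GLCC1 siRNA libraries. The mean went from 154 ± 5.93 to 227 ± 5.90 CPM (SD, n = 3 each), a log2 fold change of 0.57 (SE 0.08, 95% interval 0.40 to 0.73, 1.48-fold, edgeR adjusted p = 8.5e-05), which was also 0.57 without GLCC1 siRNA replicate 2. The ratio of B2M to the sum of the 3 heavy chains, in counts per kb of exon, was 0.309, 0.313 and 0.298 in the control libraries and 0.414, 0.629 and 0.445 in the GLCC1 siRNA libraries. It did not overlap between the groups and was 1.59-fold higher on average, and since it was chosen after the values were seen, it was not tested.

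Of the 2 transporter subunits, TAP2 rose and TAP1 did not pass the test. TAP2 (ENSG00000204267, chr6:32789610-32806516, minus strand) was measured at 87.4, 98 and 92.3 CPM in the control libraries and at 265, 177 and 204 CPM in the GLCC1 siRNA libraries. The lowest GLCC1 siRNA library lay well above the highest control, and the mean went from 92.5 ± 5.32 to 215 ± 45.0 CPM (SD, n = 3 each). The log2 fold change of TAP2 was 1.22 (SE 0.13, 95% interval 0.95 to 1.49, 2.33-fold, edgeR adjusted p = 8.5e-06), and 1.34 without GLCC1 siRNA replicate 2. TAP1 (ENSG00000168394, chr6:32812986-32821593, minus strand) was measured at 42.7, 50.3 and 44.5 CPM in the control libraries and at 58, 35.1 and 45.4 CPM in the GLCC1 siRNA libraries. Replicate 1 lay above the controls, replicate 2 below and replicate 3 among them, with a log2 fold change of 0.02 (SE 0.15, 95% interval -0.30 to 0.33, edgeR adjusted p = 0.94). Its sign depended on the libraries used, since the estimate ran from -0.18 to 0.18 as each library was left out. These ends came without GLCC1 siRNA replicates 1 and 2 (edgeR adjusted p = 0.34 and 0.12). Within a library the ratio of TAP2 to TAP1 per kb of exon was 0.935, 0.892 and 0.948 in the controls and 2.09, 2.31 and 2.06 with GLCC1 siRNA. The libraries of each group lay close together in this ratio, which was 2.32-fold higher on average with no overlap, and it was chosen after the values were seen and not tested. In GENCODE 44, exons of other genes cover 19.5% of the exon bases of TAP2 and 14.2% of those of TAP1, the latter all in the antisense gene PSMB8-AS1.

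Both immunoproteasome subunits rose. PSMB8 (ENSG00000204264, chr6:32808494-32812456, minus strand), the subunit with chymotrypsin-like activity, was measured at 24.6, 23.5 and 24.0 CPM in the control libraries and at 86.7, 54.3 and 64.4 CPM in the GLCC1 siRNA libraries. The control libraries were nearly equal, and the lowest GLCC1 siRNA library, replicate 2, was above all of them. The mean went from 24.0 ± 0.546 to 68.5 ± 16.5 CPM (SD, n = 3 each), a log2 fold change of 1.51 (SE 0.14, 95% interval 1.20 to 1.83, 2.86-fold, edgeR adjusted p = 4.3e-06), which was 1.66 without GLCC1 siRNA replicate 2. PSMB9 (ENSG00000240065, chr6:32811913-32827628, plus strand), the subunit that takes the place of PSMB6, was measured at 5.42, 6.5 and 7.05 CPM in the control libraries and at 19.3, 9.15 and 12.0 CPM in the GLCC1 siRNA libraries. These rested on 79, 118 and 117 counts and on 370, 115 and 214 counts, the fewest of any member. All 3 GLCC1 siRNA libraries lay above the controls, with replicate 2 close to them, and the log2 fold change was 1.11 (SE 0.23, 95% interval 0.62 to 1.60, 2.15-fold, edgeR adjusted p = 0.002), or 1.31 without GLCC1 siRNA replicate 2.

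NLRC5 (ENSG00000140853, chr16:57023397-57117443, plus strand), the class I transactivator, lies outside the MHC and shares no exon base with another gene. It was measured at 24.4, 28.0 and 22.9 CPM in the control libraries and at 73.4, 42.2 and 50.6 CPM in the GLCC1 siRNA libraries. Replicate 1 was again the highest and replicate 2 the lowest of the GLCC1 siRNA libraries, and none overlapped the controls. The mean went from 25.1 ± 2.63 to 55.4 ± 16.1 CPM (SD, n = 3 each), a log2 fold change of 1.15 (SE 0.17, 95% interval 0.78 to 1.51, 2.21-fold, edgeR adjusted p = 1.6e-04). Without GLCC1 siRNA replicate 2 it was 1.31 (edgeR adjusted p = 0.013).

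**Figure D2:**
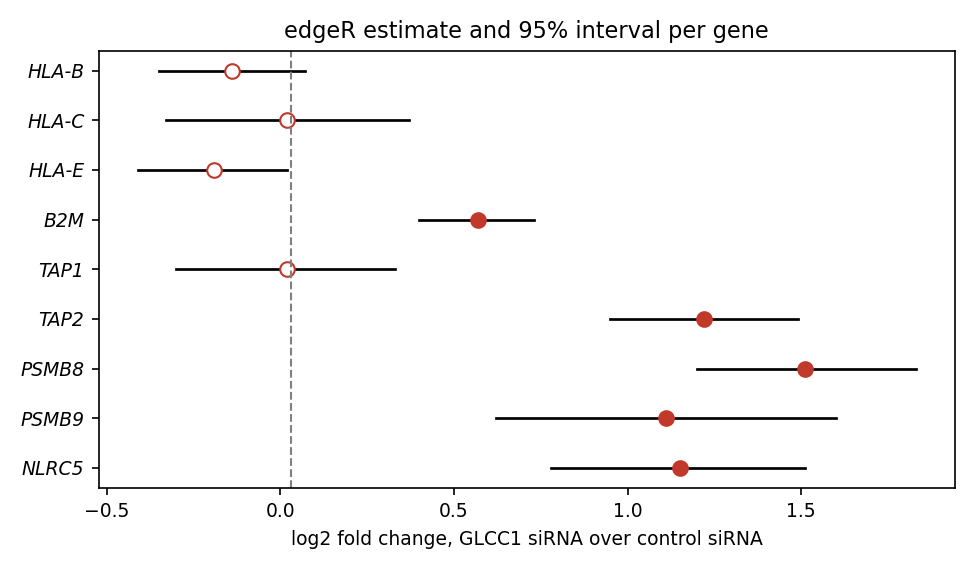
The log2 fold change of each member (GLCC1 siRNA over control siRNA, horizontal axis) is drawn as a point with its 95% interval from edgeR, filled where the adjusted p was under 0.05, and the dashed line is the median of all genes tested at 0.03. The intervals of B2M, TAP2, PSMB8, PSMB9 and NLRC5 lie wholly above the line, and those of HLA-B, HLA-C, HLA-E and TAP1 cross it.

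The members differed among themselves in how the 3 GLCC1 siRNA libraries spread. Relative to the mean of the controls on the log2 scale, PSMB8 differed by 1.83, 1.16 and 1.40 in replicates 1, 2 and 3, and NLRC5 by 1.53, 0.74 and 1.00. PSMB9 differed by 1.54, 0.51 and 0.88, and B2M by 0.61, 0.56 and 0.53. HLA-C differed by 0.34, -0.55 and 0.12, and TAP1 by 0.34, -0.38 and -0.01. Replicate 1 was thus the highest in all 9 members, and replicate 2 was the lowest in all but B2M, the same library that had the fewest read pairs and the largest share outside genes. The part of that share in the order of the libraries was not tested.

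Levels were compared between genes per kb of exon, with exon bases shared with other genes counted in the length. These are 45.3% of the exon bases of HLA-B, 19.5% of those of TAP2 and 17.3% of those of PSMB8. How far read pairs dropped there lower the level of a gene was not tested. In the control libraries HLA-C was the highest at 80.9 ± 4.22 CPM per kb, followed by HLA-E at 56.6 ± 0.769, B2M at 49.2 ± 1.90 and HLA-B at 23.0 ± 1.14 CPM per kb (SD, n = 3). TAP1 at 9.67 ± 0.831 and TAP2 at 8.93 ± 0.513 CPM per kb overlapped, PSMB8 stood at 6.91 ± 0.157 CPM per kb, and NLRC5 at 2.03 ± 0.212 overlapped PSMB9 at 1.89 ± 0.249 CPM per kb. The heavy chains and B2M were therefore more abundant than the processing and transport genes, and NLRC5 and PSMB9 were the least abundant. With the length of the longest transcript, an alternative added after seeing the data, B2M at 65.9 ± 2.55 CPM per kb overlapped HLA-E at 64.9 ± 0.882, and NLRC5 at 3.68 ± 0.385 no longer overlapped PSMB9 at 2.36 ± 0.31 CPM per kb. In the GLCC1 siRNA libraries B2M at 72.8 ± 1.89 CPM per kb stood second after HLA-C at 81.6 ± 24.2 CPM per kb, which overlapped it. TAP2 at 20.8 ± 4.35 and PSMB8 at 19.7 ± 4.75 CPM per kb overlapped each other, and TAP2 also overlapped HLA-B at 20.9 ± 2.44 CPM per kb. TAP1 followed at 9.75 ± 2.43 CPM per kb, with NLRC5 at 4.47 ± 1.3 overlapping PSMB9 at 4.04 ± 1.57 CPM per kb. With the longest transcript, TAP2 at 34.8 ± 7.27 and PSMB8 at 28.8 ± 6.97 CPM per kb passed HLA-B at 27.2 ± 3.19 CPM per kb, and both overlapped it.

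TAP2, PSMB8, TAP1 and PSMB9 lie side by side within 38019 bases of the class II region of the MHC on chromosome 6. The canonical starts of TAP1 and PSMB9 are 488 bases apart on opposite strands. Of these neighbours, PSMB9 passed the test and TAP1 did not. The ratio of PSMB9 to TAP1 per kb of exon, chosen after the values were seen and not tested, was 0.180, 0.184 and 0.225 in the control libraries and 0.472, 0.370 and 0.374 with GLCC1 siRNA. The antisense gene TAPSAR1 (PSMB8-AS1 in the annotation), whose exons overlap those of TAP1, PSMB8 and PSMB9, went from 1.31 ± 0.14 to 4.01 ± 1.35 CPM (SD, n = 3 each), a log2 fold change of 1.57 (SE 0.27, edgeR adjusted p = 5.4e-04). Whether the counting used strand is not given in the sources used here, so whether read pairs in these overlaps were dropped or were assigned by strand was not tested. A set of 3 class I pseudogenes, which resemble the heavy chains in sequence, did not pass the test, with log2 fold changes of 0.00 for HLA-H, 0.24 for HLA-L and -0.01 for HLA-V (edgeR adjusted p = 1, 0.29 and 0.97). TAPSAR1 and the pseudogenes were chosen after their values were seen.

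Assembly of the immunoproteasome exchanges PSMB5, PSMB6 and PSMB7 for PSMB8, PSMB9 and PSMB10, and each pair was compared as a ratio of counts per kb of exon within a library, which needs no scaling between libraries. PSMB8 to PSMB5 was 0.125, 0.120 and 0.112 in the control libraries and 0.488, 0.364 and 0.351 in the GLCC1 siRNA libraries. PSMB9 to PSMB6 was 0.0231, 0.0270 and 0.0289 in the control libraries and 0.107, 0.0670 and 0.0651 in the GLCC1 siRNA libraries. PSMB10 to PSMB7 was 0.00674, 0.0100 and 0.00911 in the control libraries and 0.0301, 0.0273 and 0.0221 in the GLCC1 siRNA libraries. All 3 ratios were higher in every GLCC1 siRNA library than in any control, by 3.33-fold, 2.96-fold and 3.09-fold on average, while in each library the constitutive subunit remained the more abundant of the pair. The two-sided exact permutation test gave p = 0.10 for each (adjusted p = 0.10 over 3 ratios), the smallest that 3 libraries against 3 allow, so the test could not pass the threshold.

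**Figure D3:**
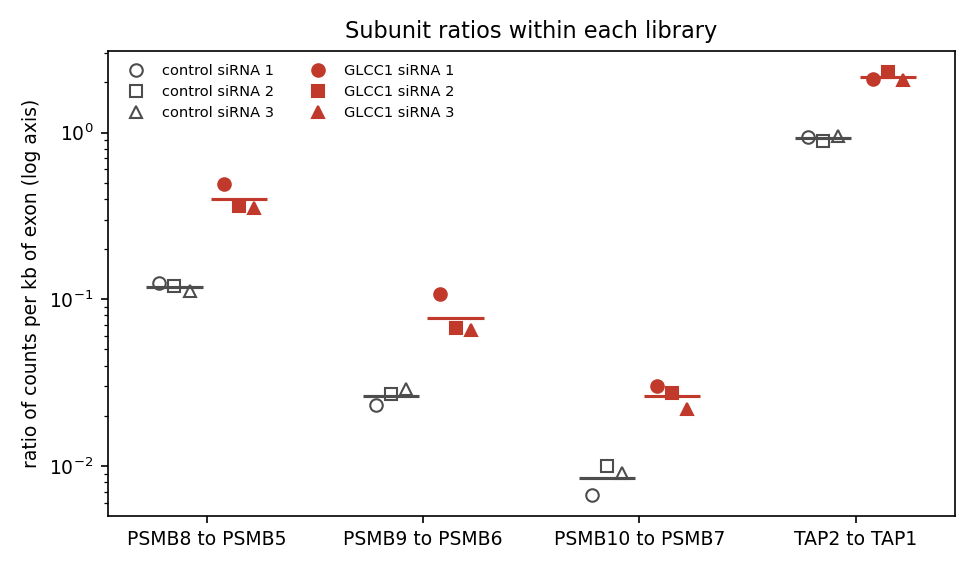
The ratio of counts per kb of exon within each library is plotted on a log axis for 3 pairs of immunoproteasome and constitutive subunits and for TAP2 to TAP1, with open symbols for control siRNA, filled symbols for GLCC1 siRNA and a line at the geometric mean of 3 libraries. In all 4 ratios the filled symbols lie above the open ones, from 0.112 to 0.125 up to 0.351 to 0.488 for PSMB8 to PSMB5.

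The rise of the 2 members of the immunoproteasome stood beside changes in both directions among the other proteasome genes. Of 8 partners, 3 rose, 3 fell and 2 did not pass the test, with a median log2 fold change of -0.12. PSMB10, the third immunoproteasome catalytic subunit, rose at a low level from 1.60 ± 0.377 to 3.42 ± 0.613 CPM (SD, n = 3 each, log2 fold change 1.09, SE 0.24, edgeR adjusted p = 0.003). PSME1 and PSME2, the subunits of the interferon-inducible PA28 activator, rose by log2 fold changes of 0.34 and 0.43 (edgeR adjusted p = 0.0057 and 0.0013). PSMB6 and PSMB7, the constitutive catalytic subunits, had log2 fold changes of -0.52 and -0.51 (edgeR adjusted p = 0.0024 and 5.7e-04), and POMP, the assembly chaperone of the proteasome, had -0.43 (edgeR adjusted p = 0.0068). PSMB5, the constitutive counterpart of PSMB8, had -0.25 (edgeR adjusted p = 0.069) and PSME3 had 0.01 (edgeR adjusted p = 0.97).

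Of the 8 other class I and class I-like heavy chains, 7 could be tested and only HFE, the class I-like chain that controls iron uptake, was called. It rose from 6.67 ± 0.634 to 12.6 ± 0.883 CPM (SD, n = 3 each, log2 fold change 0.92, SE 0.13, edgeR adjusted p = 1.2e-04). HLA-F, MICA, MICB, MR1, CD1D and FCGRT did not pass the test, with log2 fold changes between -0.73 for CD1D and 0.19 for HLA-F, and the median of the 7 was 0.01. HLA-G, a chain known from the placenta, had 1 count in all 6 libraries together.

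Among the 7 genes that load and trim the peptides, 4 rose, 1 fell and 2 did not pass the test, with a median log2 fold change of 0.29. ERAP1 and ERAP2, the aminopeptidases that trim peptides in the endoplasmic reticulum, rose by 0.61 (SE 0.10, edgeR adjusted p = 4.7e-04) and 0.76 (SE 0.09, edgeR adjusted p = 4.0e-05) on the log2 scale. TAPBP (tapasin), which bridges TAP and the heavy chain, rose by 0.48 (edgeR adjusted p = 0.0049), and the chaperone CALR by 0.24 (edgeR adjusted p = 0.027). CANX, the chaperone that holds free heavy chains before they meet B2M, fell from 1307 ± 36.9 to 817 ± 78.0 CPM (SD, n = 3 each, log2 fold change -0.68, SE 0.08, edgeR adjusted p = 3.6e-05). TAPBPL, a relative of tapasin, had 0.29 (edgeR adjusted p = 0.26) and PDIA3 had 0.20 (edgeR adjusted p = 0.051). Without GLCC1 siRNA replicate 2 they had 0.50 and 0.18 (edgeR adjusted p = 4.2e-04 and 0.0034).

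NLRC5 works with factors that bind class I promoters, and of 13 genes for such factors and for interferon and NF-kB signalling, 5 rose, 2 fell and 6 did not pass the test, with a median log2 fold change of 0.24. IRF1, an interferon-induced factor that binds IRF elements, was measured at 17.7, 17.4 and 17.5 CPM in the control libraries and at 30.3, 18.0 and 25.7 CPM in the GLCC1 siRNA libraries, with replicate 2 near the controls (log2 fold change 0.50, SE 0.15, edgeR adjusted p = 0.023, and 0.68 without replicate 2, edgeR adjusted p = 5.5e-09). ATF1 and NFYB, which belong to the families that bind the X2 and Y boxes, rose by 0.89 and 0.70 (edgeR adjusted p = 4.7e-05 and 1.2e-04), and RFXAP, a subunit of the RFX complex, by 0.47 (edgeR adjusted p = 0.004). NFYC, of the same family as NFYB, rose by 0.38 (edgeR adjusted p = 0.026), with replicate 2 at 51.5 CPM among the controls. Without that library NFYC rose by 0.51 (edgeR adjusted p = 2.8e-09). RELA, the p65 subunit of NF-kB, had -0.58 (edgeR adjusted p = 0.0014) and IRF2, which lies outside the naming rule, -0.35 (edgeR adjusted p = 0.028). CIITA, the class II transactivator and relative of NLRC5, did not pass the test at means of 1.14 and 1.54 CPM (edgeR adjusted p = 0.40).

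The class II pathway shares factors with class I, and most of its genes had few or no counts. Of 13 genes, HLA-DRA, HLA-DRB1, HLA-DPA1, HLA-DPB1 and HLA-DQA1 had 0 counts in all 6 libraries, where 3 counts would correspond to between 0.158 and 0.251 CPM, and 6 had enough counts to be tested, of which 2 rose, 0 fell and 4 did not pass the test by edgeR, with a median log2 fold change of 0.60. HLA-DMA, which edits the peptides of class II molecules, rose from 6.88 ± 1.05 to 10.9 ± 0.777 CPM (SD, n = 3 each, log2 fold change 0.66, SE 0.14, edgeR adjusted p = 0.0029). CD74, the invariant chain, had 1, 1 and 0 counts in the control libraries and 6, 4 and 12 counts in the GLCC1 siRNA libraries, which passed the test (edgeR adjusted p = 0.012) at a level too low to give a fold, and it lies outside the naming rule. Over these 5 lists, with 8, 7, 7, 13 and 6 genes tested in the order above, 21 genes were called. The background with all libraries was 14.9% of all genes higher and 16.7% lower. Without GLCC1 siRNA replicate 2 the lists held 29 called genes, with HLA-F, CD1D, TAPBPL, PDIA3, PSMB5, RFXANK, NFYA and CREB1 added. Over all genes tested the calls went up as well without that library, from 7293 to 9920.

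The genes whose pattern over the 6 libraries was most like the mean pattern of the members were sought among the 10370 genes that reached 10 CPM on average. They were NAPA (Pearson r = 0.9904), PLEKHA6 (0.9883), DAK (0.9878), ZNF687 (0.9858) and HERC2P2 (0.9853), each over 6 libraries that share their scaling. The mean pattern, in SD units, was -0.56, -0.18 and -0.29 in the controls and 1.15, -0.54 and 0.42 in GLCC1 siRNA replicates 1, 2 and 3, so that replicate 2 lay among the controls. None of these 5 genes was called, with log2 fold changes between 0.07 and 0.20. PSMB9 was the member closest to the mean pattern at r = 0.90, and HLA-E the farthest from it at 0.26. Each member is itself part of that mean, which raises its own r.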

How the data were processed

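Total RNA was extracted with Trizol and 3 libraries per group were made with the TruSeq RNA kit. For each library the authors deposited a table of raw counts by gene symbol, made from read pairs with TopHat2 2.0.11 on hg19 and HTSeq in union mode, without normalization or filter. Union mode drops pairs that overlap more than 1 gene, and how many pairs of each member were lost in this way was not tested. The HTSeq version and strand setting are not given in the sources used here. The study describes its replicates in general as independent and collected separately, without naming these libraries, and p-values measure the spread between them.

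Members and lists were chosen with earlier results of these data known. Genes with fewer than 5 counts summed over each condition were removed, and counts were scaled by TMM and compared with the robust quasi-likelihood test of edgeR 4.0.16 (R 4.3.3) over all 23074 genes with Benjamini-Hochberg adjustment, where called means an adjusted p under 0.05. CPM are TMM-scaled, ± is the SD, and intervals are 95% intervals of the model. Depth is the number of pairs on genes, 11948790 to 19042516, and a floor of 3 counts covers counting error only. The tallies for no feature, ambiguous and repeatedly aligned pairs were left out of library sizes (9.82% to 12.7%, 7.30% to 7.79% and 10.8% to 12.4% of all pairs). Copies were looked for, and the chi-square per degree of freedom within a group was 1.93 to 19. Named were the 9 members, up to 6 called genes per list with a mean of at least 1 CPM in order of absolute log2 fold change, the 5 genes of most similar pattern, and FARP1. A listed gene and a promoter are not reported here.

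Lengths, positions, overlaps and promoters are from GENCODE 44 on GRCh37, read with Python 3.11.15. The study names an Ensembl GRCh37 annotation, so lengths and overlaps of the counted gene models may differ from these. The code was tested on simulated data. Alternatives were DESeq2 1.42.0, its size factors in edgeR, library totals only, filters of 1 count in any library and of 10 in every library, the replicate block, a fold of at least 2 and each library left out. For the ratios, the longest transcript and 0.5 added counts were tried, and the longest transcript for levels was added after seeing the data.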

Additional observations from a re-analysis of the deposited data

Results flagged for a closer look

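Read pairs outside annotated genes, a tally which the comparison of the members does not use, made up 11.6% of all pairs on average in the GLCC1 siRNA libraries (11% to 12.7%) and 9.94% in the control libraries (9.82% to 10.1%), a level above that of the controls in each library. GLCC1 siRNA replicate 2, at 12.7%, was also the library in which 8 of the 9 class I genes were the lowest of their group, all but B2M.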

How the results depend on the processing

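B2M, TAP2, PSMB8, PSMB9 and NLRC5 were called higher under every alternative with a test, except that B2M at 1.48-fold was below the limit when at least a 2-fold change was asked for, which left 4 members and reduced the count over all genes from 7293 to 1796. Their log2 fold changes ran from 0.54 to 0.69 for B2M, 1.05 to 1.34 for TAP2, 1.31 to 1.66 for PSMB8, 0.75 to 1.31 for PSMB9 and 0.89 to 1.31 for NLRC5 over 12 alternatives. HLA-C (-0.17 to 0.24) and TAP1 (-0.18 to 0.18) had no stable sign, and HLA-C joined the called genes without GLCC1 siRNA replicate 2, which made 6 members. No member was called lower in any of the 13 alternatives, edgeR and DESeq2 included, and the other antigen presentation lists held between 16 and 29 called genes against 21. Leaving out 1 library at a time gave between 5221 and 9920 called genes over all. The differences of the 3 subunit ratios on the log2 scale stayed between 1.33 and 1.82. With the replicate block, 6522 genes and 5 members were called. Libraries of the same number did not deviate together (correlations -0.29 to -0.01 over 14875 genes), so the numbers were not used to pair them, and the block changed no call among the 9 members. Depth limits the genes with few counts, such as PSMB10, CD1D and CIITA, and no single-gene exact test of 3 against 3 libraries can fall below 0.1.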
